A study of Mus musculus with 10 samples.

Results

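The clock output genes examined here are Dbp, Tef, Hlf, Nfil3, Nr1d1, Nr1d2, Rora, Wee1 and Usp2. These 9 genes, of 23284 features in the tables, were chosen by symbol with the values of the treated and normal libraries already known, so their distance from normal is given below as a description. The 10 libraries of colorectum RNA all came from BALB/c mice aged 7 weeks and form 5 groups of 2. Normal mice (day 0) received neither dextran sodium sulfate (DSS), a polysaccharide that injures the colon epithelium, nor an injection. The other 4 groups received 2% DSS and a miRNA in super carbonate apatite (sCA), a particle carrier given through the tail vein on days 1 to 3: a negative control (NC-miR, tissue on day 2 or day 4), miR-29a (day 4) or miR-29b (day 4). Mice of the NC-miR day 2 group are also labelled as injected up to day 3, and the day of every NC-miR library rests on the sample titles. The labels do not say that libraries came from separate animals, so every p below measures only the spread between these samples.

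The circadian clock is a transcriptional loop in which the BMAL1 and CLOCK proteins switch on genes through E-box sequences, among them the genes of their own repressors. Its output runs through 2 families with opposed members. The PAR bZIP activators DBP, TEF and HLF and the repressor NFIL3 bind the same D-box sequence, while the REV-ERB nuclear receptors (Nr1d1, Nr1d2) repress and the ROR receptors (Rora) activate genes through shared ROR elements. Transcripts of this circuit cycle over the day in colon as in most tissues. The hour of tissue collection is not given in the sources used here, so group and hour cannot be told apart, and neither can DSS, the injections and the day in any comparison with normal.

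As deposited, each value is a log2 ratio to the gene's own baseline, so values can be compared between libraries for 1 gene but not between genes. Features with little signal sit at a floor, whose height differs between genes, and 12680 to 12940 features lay above it per library. The files give no read counts, and depth is unknown. Some of the marker lists fixed for other cell types moved in these bulk samples. The mean of 9 absorptive colonocyte markers (of 10 listed) was 0.58 to 1.18 above the normal mean in the 8 treated libraries, and the mean of 9 B and plasma cell markers was 0.61 to 1.99 below it. Squamous epithelium markers stood apart in NC-miR day 4 replicate 1, where 5 of 9 listed genes were above the floor with a mean of 5.11 above normal, against at most 0.52 in the other libraries. The mean of 8 adipocyte markers differed between the normal libraries, at -0.60 and 0.60 around their mean. It was -0.036 to 1.31 in the treated libraries. The part of these markers in the results below was not tested. In bulk tissue, fewer cells of a type and less RNA per cell cannot be told apart.

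Sequence before the members' start sites is shown where it holds 1 of 5 motifs known from clock genes, because 6 members were higher and Nfil3 lower than normal in all treated libraries. RefSeq (GRCm38.p6, the same sequence as mm10) gave 9 windows for 8 members, from 250 bases before to 50 bases after the start, and none for Wee1. Each motif was searched on both strands. The E-box CACGTG occurred in 2 of the 9 windows, both of Tef, 127 and 138 bases before their starts, against 7.15% of all 32851 windows of that length. The related E prime box CACGTT occurred in Nr1d1 (28 bases before the start, 4.68% of all windows), the ROR element core TAGGTCA in Nfil3 (12 bases before, 2.61%) and the cAMP response element TGACGTCA in Hlf (9 bases before, 1.79%). The Nr1d1 and Nfil3 matches lie on the other strand and read as the reverse complement below. The D-box TTANGTAA was found in 0 of the 9 windows (2.32% of all windows), and none of the 5 motifs was found in the Dbp window. A match is a run of letters and not a shown binding site, and a missing match covers only this window. The capitals mark the motif, on the strand of the gene, 5′ to 3′.
Tef, chr15:81802506-81802591, + strand: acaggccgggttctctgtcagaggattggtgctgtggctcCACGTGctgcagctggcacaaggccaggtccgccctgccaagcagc
Tef, chr15:81811236-81811321, + strand: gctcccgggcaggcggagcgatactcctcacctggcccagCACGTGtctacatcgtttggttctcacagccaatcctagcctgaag
Nr1d1, chr11:98775378-98775445, - strand: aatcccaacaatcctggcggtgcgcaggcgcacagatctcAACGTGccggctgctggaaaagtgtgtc
Nfil3, chr13:52981040-52981091, - strand: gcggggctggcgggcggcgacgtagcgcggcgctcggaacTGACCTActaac
Hlf, chr11:90390918-90390966, - strand: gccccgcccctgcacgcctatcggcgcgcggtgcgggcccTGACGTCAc

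The 3 PAR bZIP activator genes were higher in every treated library than in both normal libraries. Dbp (mm10 chr7:45705088-45710203, + strand), the member with the widest distance from normal, stood at -2.88 and -2.99 in normal colorectum. It stood at 1.64 and 1.36 in NC-miR day 2, 1.11 and 1.44 in NC-miR day 4, 2.00 and 1.69 in miR-29a, and 1.70 and 1.40 in miR-29b. All 8 treated libraries were thus high, the lowest of them 3.99 above the higher normal library, while the treated groups overlapped their neighbours in the order NC-miR day 4, NC-miR day 2, miR-29b, miR-29a. The difference from normal was 4.44 on the log2 scale in NC-miR day 2 (21.7-fold), 4.21 in NC-miR day 4 (18.6-fold), 4.78 in miR-29a (27.4-fold) and 4.49 in miR-29b (22.5-fold), each ± 0.19 (limma standard error, SE, n = 2 libraries per group, as for all differences below). With quantile normalization the Dbp difference was 3.71 in NC-miR day 2 and 5.40 in miR-29a.

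Tef (chr15:81802421-81826863, + strand), which encodes thyrotroph embryonic factor, was the least scattered member. It read -1.49 and -1.47 in normal mice, 0.93 and 0.91 in NC-miR day 2, 0.68 and 0.85 in NC-miR day 4, 1.36 and 1.32 in miR-29a, and 1.17 and 1.00 in miR-29b. Its group means rose in the order normal, NC-miR day 4, NC-miR day 2, miR-29b, miR-29a. The differences from normal, listed here and below in the order NC-miR day 2, NC-miR day 4, miR-29a, miR-29b, were 2.40, 2.25, 2.82 and 2.57 (± 0.13), or 4.76-fold to 7.07-fold. Its standard deviation within groups was 0.079, and 94.6% of the features tested had a larger one.

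Hlf (chr11:90336536-90390895, - strand), hepatic leukemia factor, moved least of the 3 activators. It read -0.66 and -0.18 in normal mice, 0.39 and 0.73 in NC-miR day 2, 0.28 and 0.03 in NC-miR day 4, 1.24 and 0.80 in miR-29a, and 0.39 and 0.36 in miR-29b. The lowest treated library was 0.20 above the higher normal one, a gap smaller than the 0.48 between the normal libraries. The differences from normal were 0.98, 0.57, 1.44 and 0.79 (± 0.22), and the range over treated libraries (1.21) exceeded the mean distance from normal (0.94).

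**Figure D1:**
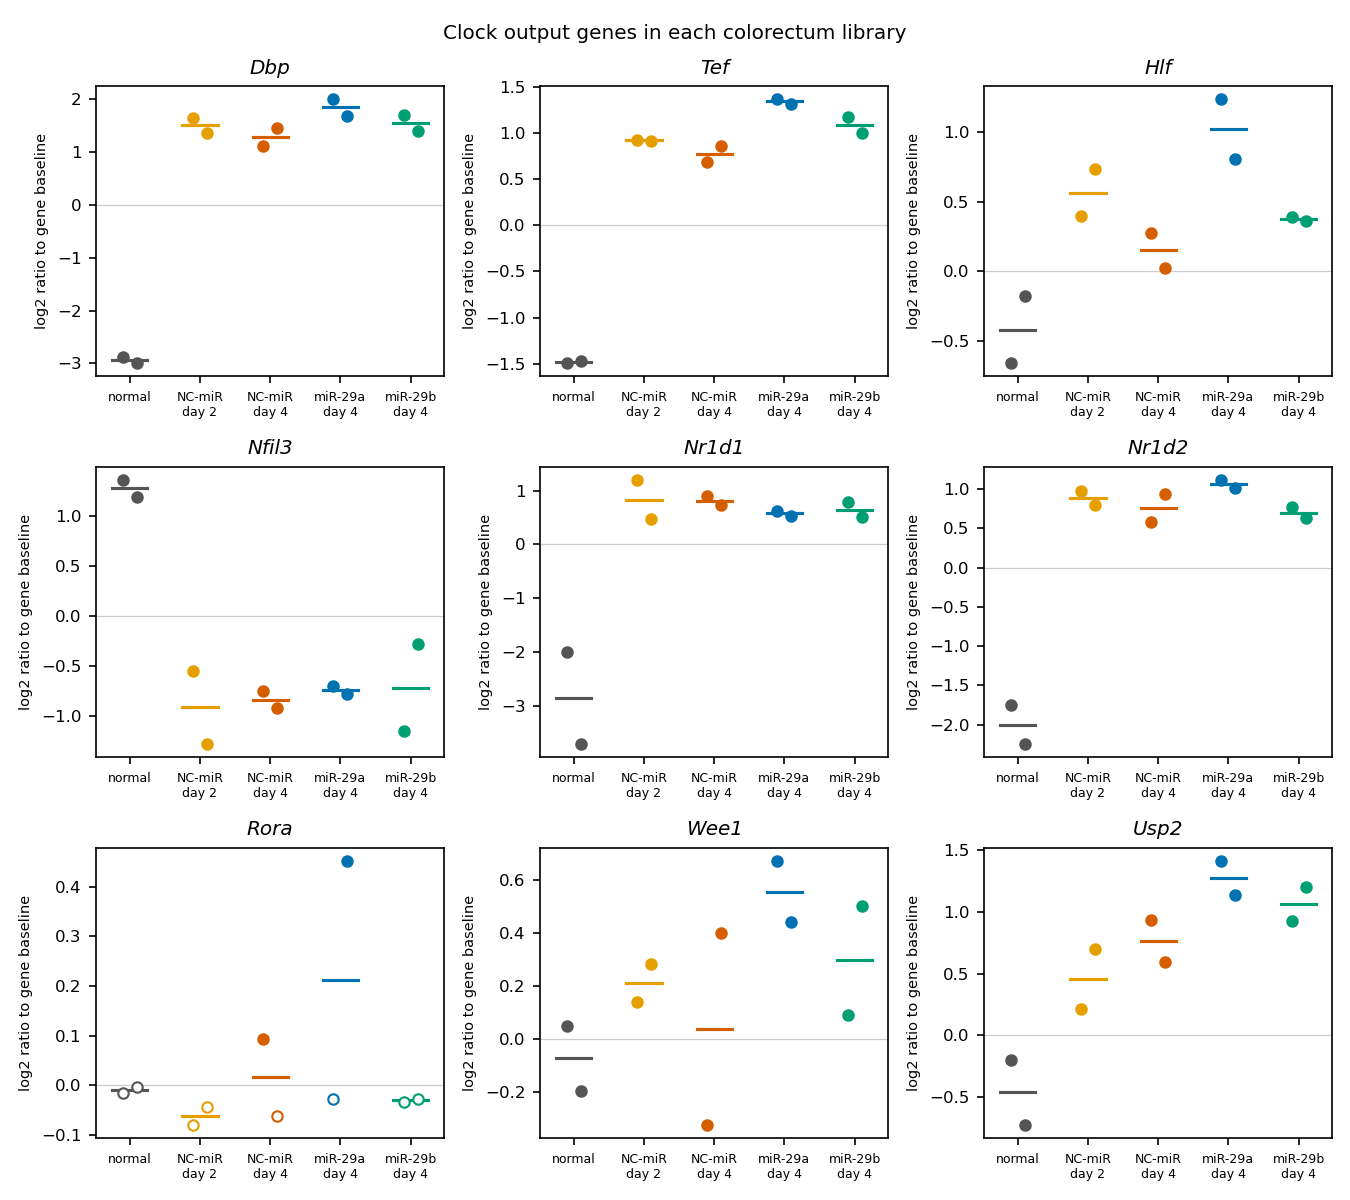
Log2 ratio to the gene's baseline (y) of the 9 clock output genes in each of the 5 groups (x). Points are libraries, bars group means of 2, and open points lie at the floor. Dbp, Tef, Nr1d1, Nr1d2, Hlf and Usp2 are higher and Nfil3 lower in all 8 treated libraries than in both normal ones.

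Nfil3 (chr13:52967209-52981073, - strand), the repressor that competes for the D-box, moved the other way. It read 1.36 and 1.20 in normal mice, -0.55 and -1.28 in NC-miR day 2, -0.75 and -0.93 in NC-miR day 4, -0.70 and -0.78 in miR-29a, and -1.15 and -0.28 in miR-29b. All 8 treated libraries were below both normal ones, by at least 1.48, and the treated groups overlapped in every neighbouring pair of their order. The differences from normal were -2.20, -2.12, -2.02 and -2.0 (± 0.31), or 4.00-fold to 4.59-fold lower. The log2 ratio of Dbp to Nfil3 was 5.90 to 7.08 above its normal mean in the 8 treated libraries, and that of Tef to Nfil3 was 4.04 to 5.09 above.

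The REV-ERB receptor genes were higher in all treated libraries. Nr1d1 (REV-ERB alpha, chr11:98767932-98775333, - strand) had the widest gap between normal libraries of all members, at -2.0 and -3.71. It read 1.19 and 0.47 in NC-miR day 2, 0.91 and 0.72 in NC-miR day 4, 0.62 and 0.53 in miR-29a, and 0.78 and 0.50 in miR-29b. The lowest treated library was still 2.47 above the higher normal one, and the treated groups overlapped in every neighbouring pair. Its differences from normal were 3.69, 3.67, 3.43 and 3.50 (± 0.48), and their size rested on which normal library was used. They ran from 2.58 to 2.84 without normal replicate 2 and from 4.28 to 4.54 without normal replicate 1.

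Nr1d2 (REV-ERB beta, chr14:18204054-18239127, - strand) read -1.75 and -2.25 in normal mice, 0.98 and 0.80 in NC-miR day 2, 0.58 and 0.93 in NC-miR day 4, 1.11 and 1.01 in miR-29a, and 0.78 and 0.63 in miR-29b. All treated libraries were at least 2.33 above both normal ones, and the miR-29a group had the highest mean. The differences from normal were 2.89, 2.76, 3.06 and 2.70 (± 0.20), or 6.51-fold to 8.35-fold. Rora (chr9:68653786-69388246, + strand), the activator on the same elements, lay at the floor in 8 libraries and above it in NC-miR day 4 replicate 1 (0.09) and miR-29a replicate 2 (0.45) only. It passed the filter in no group and was not tested, so no direction is given for it.

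Of the 2 output enzymes, Usp2 was higher in every treated library and Wee1 overlapped. Usp2 (chr9:44067021-44095627, + strand), a deubiquitinating enzyme, read -0.20 and -0.73 in normal mice, 0.21 and 0.70 in NC-miR day 2, 0.94 and 0.59 in NC-miR day 4, 1.41 and 1.13 in miR-29a, and 0.92 and 1.20 in miR-29b. The differences from normal were 0.92, 1.23, 1.73 and 1.53 (± 0.24), with the lowest treated library 0.41 above the higher normal one. Wee1 (chr7:110122046-110143286, + strand), the kinase that holds back entry into mitosis, read 0.05 and -0.20 in normal mice, 0.14 and 0.28 in NC-miR day 2, -0.32 and 0.40 in NC-miR day 4, 0.67 and 0.44 in miR-29a, and 0.09 and 0.50 in miR-29b. NC-miR day 4 replicate 1 was below both normal libraries and the other 7 treated libraries were above them. The differences from normal were 0.28, 0.11, 0.63 and 0.37 (± 0.25). Without NC-miR day 4 replicate 1 the NC-miR day 4 value was 0.47, and without replicate 2 it was -0.25.

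Counted together, 6 of the 9 genes had all 8 treated libraries above both normal ones, as did 5.74% of the features tested, and 1 (Nfil3) had all 8 below, as did 7.62%. The limma fit took 13051 features whose values cleared the floor in both replicates of some group, and 8 of the 9 members were among them. At an adjusted p under 0.05, 4 members were called higher and 1 lower in NC-miR day 2 (1.22% of features were called), the same numbers in NC-miR day 4 (0.383%), 6 and 1 in miR-29a (0.421%) and 5 and 1 in miR-29b (0.49%). The median member difference from normal was 1.69, 1.74, 2.28 and 2.05, beside -0.058, -0.035, -0.021 and -0.028 over all features. Because these contrasts were known when the genes were chosen, and all 4 share the same 2 normal libraries, nothing is read from these counts. Which genes were called also depended on normalization and moderation, as given at the end. Dbp, Tef and Nr1d2 were called in all 4 comparisons, and stayed called whichever of the 10 libraries was omitted. Nfil3 was also called in all 4, but passed in only 8, 4, 2 and 2 of the 10 refits in the order of groups above, and Nr1d1 in 9, 4, 1 and 3. Hlf was called in miR-29a only, and Usp2 in miR-29a and miR-29b, and these calls were lost in all 10 refits.

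**Figure D2:**
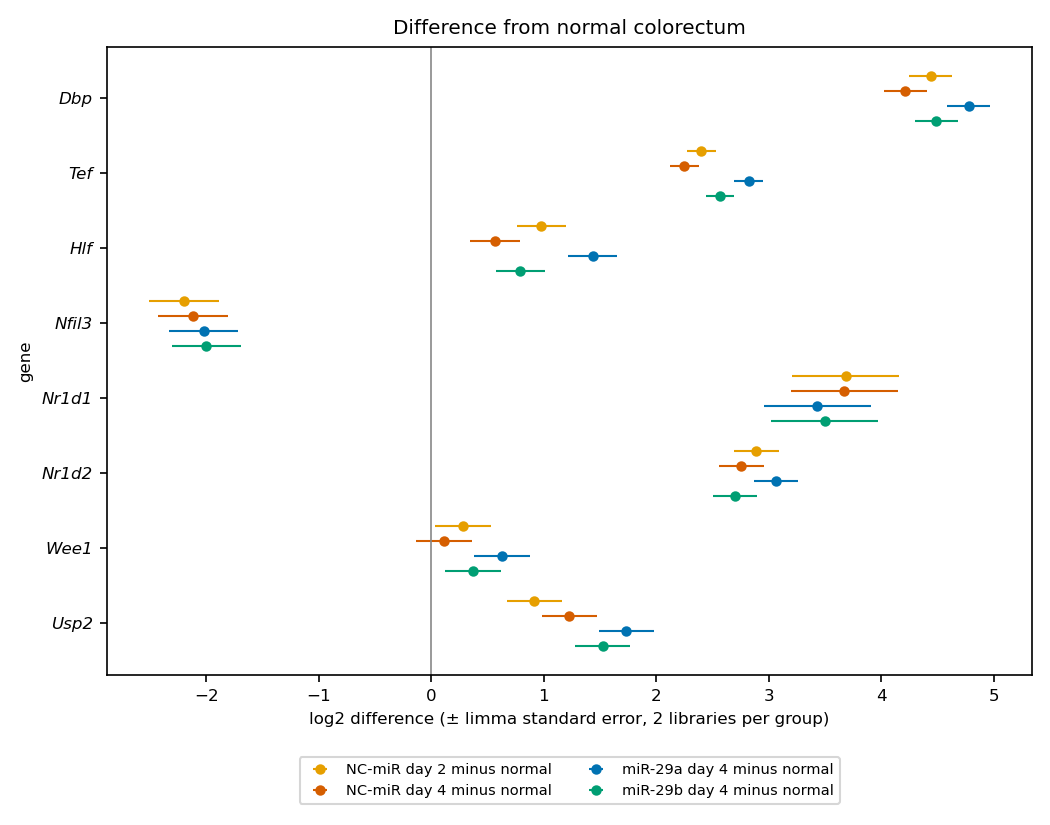
Log2 difference from normal (x) for the 8 tested genes (y) in the 4 treated groups, with limma standard errors (2 libraries per group). Dbp lies between 4.21 and 4.78, Nfil3 between -2.20 and -2.0, and Wee1 between 0.11 and 0.63.

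The comparisons among treated groups are given as tests. The genes were chosen with earlier results of these data known, so their p may be too small. Between NC-miR on day 4 and day 2, 0 of 8 members were called (0.0153% of features called, 0 members and 837 features with an unadjusted p under 0.05). The largest differences were -0.41 ± 0.22 for Hlf (95% interval -0.92 to 0.09, limma adjusted p = 0.822) and 0.31 ± 0.24 for Usp2 (-0.25 to 0.87, adjusted p = 0.873). The Usp2 value was 0.14 without NC-miR day 4 replicate 1, the library with squamous markers, and ran from 0.066 to 0.56 as 1 library or another was left out. The Hlf value was -0.54 without that library. The median member difference was -0.14, against 0.021 over all features.

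For miR-29a against NC-miR on day 4, 0 of 8 members were called, with 0% of all features called. At an unadjusted p under 0.05 stood 3 members and 996 features. Those 3 were the PAR bZIP activators. Tef differed by 0.57 ± 0.13 (95% interval 0.28 to 0.86, limma adjusted p = 0.445), Hlf by 0.87 ± 0.22 (0.36 to 1.37, adjusted p = 0.542) and Dbp by 0.56 ± 0.19 (0.13 to 1.00, adjusted p = 0.62). These intervals are for 1 gene each and are not adjusted for the number of features. Without NC-miR day 4 replicate 1, the library with squamous markers, the values were 0.48 for Tef, 0.99 for Hlf and 0.40 for Dbp. Usp2 (0.51 ± 0.24, interval -0.055 to 1.07), Wee1 (0.52 ± 0.25, -0.053 to 1.09) and Nr1d2 (0.30 ± 0.20, -0.15 to 0.75) had intervals that reach 0, with limma adjusted p from 0.676 to 0.738. Wee1 stood at 0.16 and Nr1d2 at 0.13 without that library. Nfil3 (0.10, interval -0.61 to 0.80) and Nr1d1 (-0.24, -1.33 to 0.85) had the widest intervals, which include changes of over 1.5-fold in either direction for both genes.

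For miR-29b against NC-miR on day 4, 0 of 8 members were called (0% of features called, 1 member and 1627 features at an unadjusted p under 0.05). Tef, the single member below that mark, differed by 0.32 ± 0.13 (95% interval 0.027 to 0.61, limma adjusted p = 0.386) and by 0.23 without NC-miR day 4 replicate 1. The median member difference was 0.24, against 0.018 over all features, and with miR-29a it was 0.51, against 0.017. Averaging the miR-29a and miR-29b groups, 0 members were called (0.00766% of features called, 3 members and 1405 features at an unadjusted p under 0.05), with Tef at 0.44 ± 0.11, Dbp at 0.42 ± 0.16 and Hlf at 0.55 ± 0.19 (limma adjusted p = 0.376 to 0.436). Without NC-miR day 4 replicate 1 these were 0.36 for Tef, 0.25 for Dbp and 0.67 for Hlf.

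Between miR-29a and miR-29b, which share the seed AGCACCA, 0 members were called (0% of features called, 1 member and 970 features at an unadjusted p under 0.05). Hlf was 0.64 ± 0.22 higher with miR-29a (95% interval 0.14 to 1.15, limma adjusted p = 0.665). The other 7 members differed by -0.067 to 0.36. A p above the threshold does not show that the 2 miRNAs act alike on these genes. The labels do not say which arm of the hairpin was injected. The 3p arms in RefSeq, with the seed (bases 2 to 8) in capitals, differ only beyond the seed.
miR-29a-3p: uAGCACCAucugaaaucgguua
miR-29b-3p: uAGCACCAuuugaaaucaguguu

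A match to that seed (TGGTGCT) was found in the annotated 3′ UTR of 3 of the 9 members, Tef, Hlf and Rora, against 13.1% of 21020 genes. The sites of the 2 members that were tested are shown with the match in capitals. Tef and Hlf had higher group means with miR-29a and with miR-29b than with NC-miR on day 4, as given above, without a call. The longest 3′ UTR of each gene was searched, and Rora, Hlf and Tef have the 3 longest among the members (9285, 4223 and 3182 bases, against a median of 961 over all genes), which a share of genes with a match does not allow for.
Tef 3′ UTR site: tccctgctgtgaTGGTGCTgtggtctgctt
Hlf 3′ UTR site: ctatagagggacTGGTGCTttgggtcattc

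**Figure D3:**
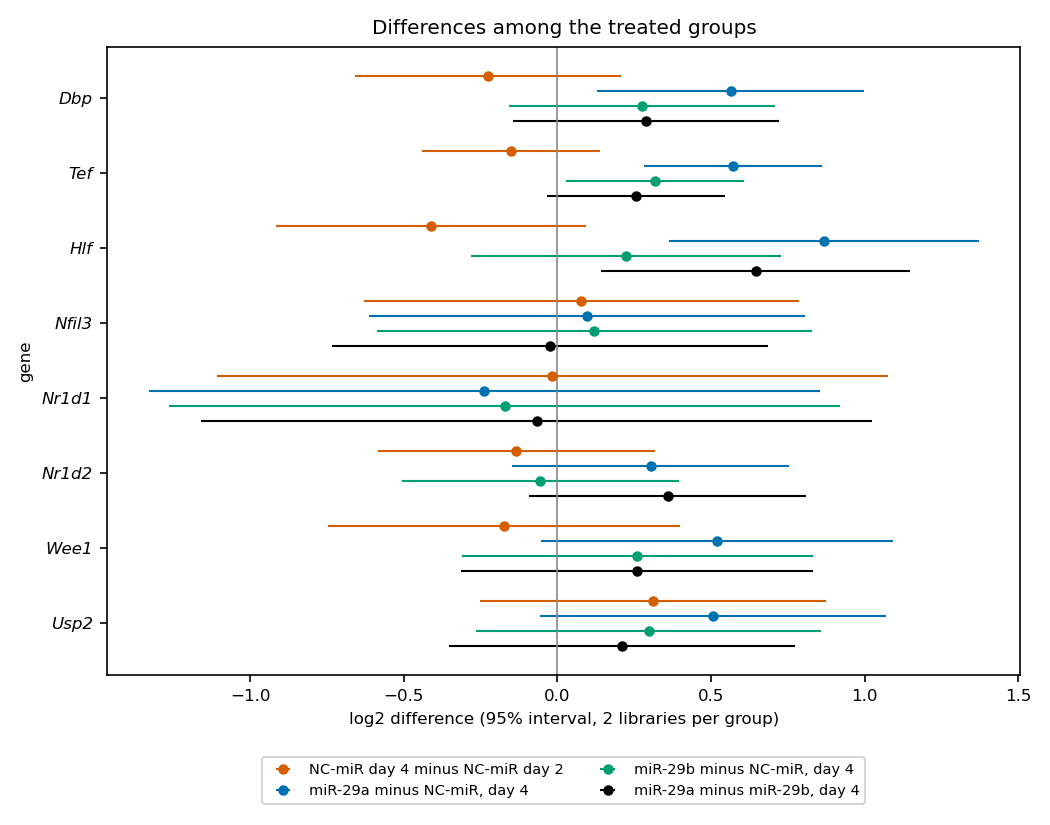
Log2 difference (x) for the 8 tested genes (y) in 4 comparisons among treated groups, with 95% limma intervals (2 libraries per group, not adjusted over genes). Tef, Hlf and Dbp lie above 0 for miR-29a minus NC-miR, and Nr1d1 and Nfil3 have the widest intervals.

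Normal libraries form a cluster apart, so relations between members are given over the 8 treated libraries, which come in 4 pairs. The permutations treat the 8 libraries as exchangeable, which libraries of the same group may not be, so these p may be too small. The treated group means of Dbp and Tef run in the same order, NC-miR day 4, NC-miR day 2, miR-29b, miR-29a. A relation between libraries thus cannot be told apart from differences between groups. Of 7 pairs with Dbp, Tef followed it most closely (Pearson r = 0.89, exact permutation p = 0.00347, adjusted over the 7 pairs 0.0243; Spearman rho = 0.86, exact p = 0.0107, adjusted 0.075). Nr1d2 was next (r = 0.82, exact permutation p = 0.011, adjusted 0.0384; rho = 0.71, exact p = 0.0576, adjusted 0.202). Nfil3 (r = 0.027, rho = 0.048, exact permutation p = 0.949 and 0.935) and Nr1d1 (r = -0.047, rho = 0.12, exact permutation p = 0.906 and 0.793) had the smallest coefficients with Dbp among the treated libraries. Hlf (r = 0.66), Wee1 (0.64) and Usp2 (0.29) had exact permutation p from 0.0744 to 0.487, and rho of 0.57, 0.40 and 0.26 with exact p from 0.151 to 0.536. Without the 2 libraries farthest from the median of Dbp, r over 6 libraries was 0.70 for Tef, 0.50 for Nr1d2, 0.50 for Nr1d1, 0.18 for Hlf, -0.020 for Nfil3, -0.028 for Usp2 and -0.50 for Wee1. Those 2 were miR-29a replicate 1 (Dbp 2.00) and NC-miR day 4 replicate 1 (1.11), the library with squamous markers. Leaving out both ends of Dbp narrows its range, which can lower r by itself. Tef stayed highest and the order of the other members changed, and nothing is read from that change.

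**Figure D4:**
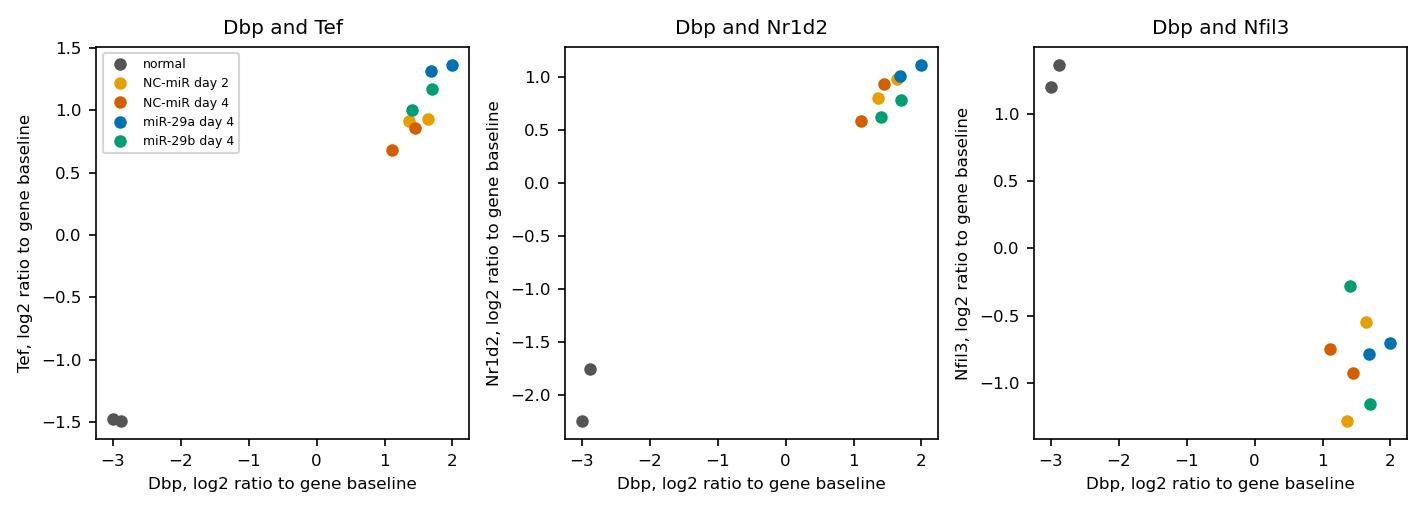
Tef, Nr1d2 and Nfil3 (y) against Dbp (x), all as log2 ratios to each gene's baseline, with 1 point per library. Among the 8 treated libraries Tef (r = 0.89) and Nr1d2 (r = 0.82) rise with Dbp and Nfil3 (r = 0.027) does not.

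The genes whose values were most like a member's over all 10 libraries were ranked by Pearson r among 12131 features above the floor in every library. That r is set mainly by the distance of the 2 normal libraries and is given as a measure of likeness. Nearest to Dbp were Slc10a2, the bile acid transporter of the ileum (r = 0.97), Syt7 (0.97), the clock gene Per3 (0.97), Myo1a, a brush border myosin (0.97), and Sphk2, a sphingosine kinase (0.96). Nearest to Nr1d1 were Mall (0.98), Ccdc116 (0.97), B4galt5 (0.96), Gcnt3 (0.96) and the clock repressor Bhlhe40 (0.96). Nearest to Nfil3 were Lta4h (0.95), Arntl (0.94), Mocs2 (0.94), Rpf1 (0.94) and Dok3 (0.93).

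Sphk2 overlaps Dbp on the opposite strand and shares 539 of its 2993 exon bases (18.0%). The kit was stranded, but how strand was used in counting is not given in the sources used here, so reads from the shared bases cannot be told apart. Sphk2 read -0.52 and -0.77 in normal mice and 0.25 to 0.82 in treated libraries, a mean distance of 1.09 beside 4.48 for Dbp. Thra overlaps Nr1d1 in the same way over 263 of 3077 bases (8.55%). It read 0.063 and 0.22 in normal mice and -0.49 to 0.14 in treated libraries, so it did not share the distance of Nr1d1 from normal. Tef, Usp2 and Rora share 193, 200 and 82 exon bases with genes on the other strand.

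The core loop that drives these outputs was read from a list of 19 genes, of which 17 were tested. In the order of groups used above, 4, 3, 4 and 4 were called higher than normal and 3, 2, 2 and 2 lower, beside 1.22%, 0.383%, 0.421% and 0.49% of all features called. This list too was chosen with these contrasts known, and they share the 2 normal libraries, so nothing is read from its counts. Arntl, which encodes BMAL1, stood at 1.30 and 1.48 in normal mice and at -1.13 to -0.48 in treated ones, and its differences were -2.14, -2.20, -2.22 and -2.26 (± 0.20). Npas2, a partner of BMAL1, differed by -1.73, -1.32, -1.81 and -1.28 (± 0.18).

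The period genes, repressors of the loop, were higher. Per3 differed from normal by 1.70, 1.47, 2.25 and 1.81 (± 0.15), and Per2 by 1.10, 1.60, 1.53 and 1.67 (± 0.20), with both called in all 4 comparisons. Per1 differed by 1.34, 1.14, 1.95 and 1.60 (± 0.25) and was called in all but NC-miR day 4. Gm129 (also named Ciart), a repressor of BMAL1 activity, was at the floor in each normal library, so its differences are lower bounds of at least 3.70, at least 3.51, at least 4.52 and at least 4.31. Cry1, a further repressor, differed by -1.66 ± 0.25 in NC-miR day 2 (called) and by -1.24, -1.22 and -1.07 in the others (not called). Over the whole list 5 genes had all 8 treated libraries above both normal ones and 6 had all below, beside the 5.74% and 7.62% of features given above. None of the 17 was called in the 5 comparisons among treated groups. At most 0.0153% of all features were called in any of these, so nothing is read from that count.

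**Figure D5:**
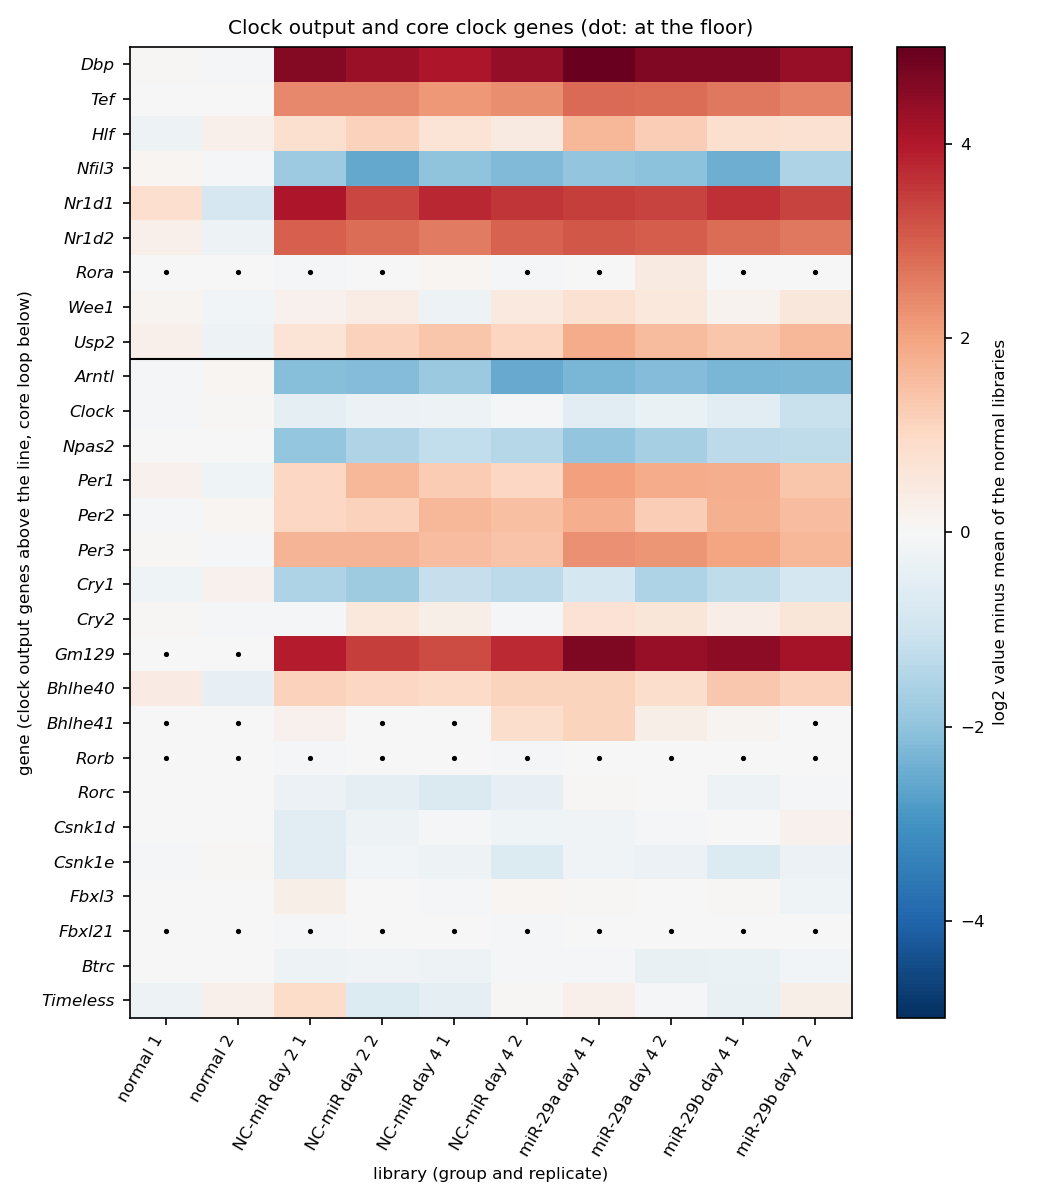
Log2 value minus the mean of the normal libraries (colour, limits -5 to 5) for the 9 clock output genes (above the line) and 19 core loop genes (below) in 10 libraries (columns). Dots mark values at the floor. The treated columns are red for Dbp, Tef, Nr1d1, Nr1d2, the period genes and Gm129, and blue for Nfil3, Arntl, Npas2 and Cry1.

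Genes known as PAR bZIP targets, mainly from liver and kidney, were also listed. Of 12 listed, 3 (Cyp2a5, Cyp3a11, Abcb1b) lay at the floor in all libraries and 8 were tested, with 0 called in any comparison. Against normal, 1.22%, 0.383%, 0.421% and 0.49% of all features were called, and at most 0.0153% in any comparison among treated groups. A count of 0 among 8 genes is near those shares, so nothing is read from it. The median difference of the 8 from normal was -0.13, 0.086, 0.40 and 0.22. Slc15a1, the intestinal peptide transporter, was the single gene with all 8 treated libraries above normal (-0.35 and -0.13 in normal mice, -0.035 to 0.45 in treated ones). Abcg2, an efflux pump, was the single tested gene with all 8 below (0.29 and 0.50 against -0.53 to 0.03). Over all features tested, 5.74% had all 8 above and 7.62% had all 8 below. Nr1i3, the nuclear receptor CAR, had the largest difference, 1.43 ± 0.44 in miR-29a. Nr1i3 was at the floor in each normal library, so this value is a lower bound. Abcb1a stood 0.16 to 0.68 above normal. Glucocorticoid response genes were listed because the hormone also cycles over the day and acts on period genes. Of 12 tested, Per1 alone was called, in every group but NC-miR day 4, beside the shares of all features called given above. Fkbp5, a chaperone induced by the hormone receptor, was higher than both normal libraries in all 8 treated ones (-0.65 and -0.48 against -0.38 to 0.94). It was not called, and 5.74% of features stood above in the same way. Tsc22d3 was above both normal libraries in 3 treated libraries and below them in 5. The median difference of the 12 from normal was 0.39, -0.20, 0.15 and 0.14, with 8, 5, 8 and 9 genes above 0.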

How the data were processed

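RNA of 10 colorectum libraries was prepared with a stranded mRNA kit, per the labels' protocols. The submitters' processing notes name TopHat2 2.0.13, Bowtie2 2.2.3, SAMtools 0.1.19, Cuffnorm 2.2.1 and mm10, without settings. Although the file headers call the column FPKM, the values as the authors deposited them behave as log2 ratios to a gene baseline. Depth and levels thus cannot be recovered. Each gene has its own floor. To find it, each library's most frequent value was subtracted, for this step only. A value was then taken as at the floor where libraries shared the gene's lowest value within 3e-05. A floor reached in a single library is not seen. No further normalization was applied.

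Features that cleared the floor in both replicates of some group (13051 of 23284) were fitted with limma 3.58.1 in R 4.3.3, with 5 group means over all 10 libraries (5 residual and 3.26 prior degrees of freedom). All limma p are two-sided, with Benjamini-Hochberg adjustment over those features, and calls at 0.05. The exact permutation p of the 7 pairs with Dbp were adjusted over those pairs only. The code was tested on simulated data. The members and gene lists were chosen with earlier results of these data known. Genes named are all 9 members, list genes called in a comparison (otherwise up to 4 of smallest p), and the 5 most alike to Dbp, Nr1d1 and Nfil3; Fkbp5, Tsc22d3, Thra and the PAR bZIP targets at the floor were added after their values were seen. Alternatives covered filtering, scaling, moderation, the replicate block, the groups fitted and leaving out each library.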

Additional observations from a re-analysis of the deposited data

How the results depend on the processing

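Each of the 8 tested members kept its direction from normal under every alternative run, except Wee1 in NC-miR day 4 without replicate 2 of that group (-0.25). How many were called, and which, depended on the setting. With quantile normalization Tef lost its call in NC-miR day 2, NC-miR day 4 and miR-29b, and Dbp and Nr1d2 lost theirs in miR-29b. Without moderation of variances Nr1d2 lost its call in NC-miR day 4 and miR-29b. In NC-miR day 2 against normal the count of 5 became 3 without a filter, without moderation, and when only the compared groups were fitted. In NC-miR day 4 the count of 5 became 3 without a filter, 2 with quantile normalization and 2 without moderation. In miR-29a the count of 7 became 3 without a filter, 3 without moderation and 4 with only the compared groups. In miR-29b the count of 6 became 3 without a filter, 0 with quantile normalization, 2 without moderation and 3 with only the compared groups. Leaving out 1 library gave 4 to 5, 3 to 5, 3 to 4 and 3 to 5 calls in these 4 comparisons. The cause was not tested. In the 5 comparisons among treated groups the count stayed at 0 under every alternative run, leaving out each library included. Nfil3 turned from 0.10 to -0.049 in miR-29a minus NC-miR under quantile normalization.

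The deviations of same-numbered replicates had correlations of -0.29 to 0.12 between pairs of groups. A batch or pairing of libraries that does not follow the replicate numbers was not tested. With a replicate block the counts were 5, 4, 4 and 4 against normal and 0 in the comparisons among treated groups. Quantile normalization and median centring moved library medians by at most 0.047, but quantile normalization moved the Dbp difference from 4.44 to 3.71 in NC-miR day 2 and from 4.78 to 5.40 in miR-29a. With 2 libraries per group and no depth in the files, differences near the median standard error of 0.18 cannot be resolved. Larger ones may go uncalled too, as did Hlf in miR-29a minus NC-miR on day 4 (0.87 ± 0.22).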
